A study of Mus musculus with 6 samples.

Results

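Membrane carriers for sugars, amino acids and organic ions were examined in embryonic mouse kidney as a set of 82 genes, out of 18193 genes with a usable probe set. The set held every gene whose symbol begins with Slc2a, Slc5a, Slc6a, Slc7a or Slc22a and a number, apart from Slc2a1, on a probe set annotated to that gene alone. The brightest such probe set, by its mean over all arrays, stood for the gene. Of the 82, 79 encode transporters, and 3 share only the name: Slc7a6os and Slc6a19os lie opposite or beside a carrier gene, and Slc2a4rg-ps is a pseudogene. Whole kidneys were taken at E13.5, in mid-gestation, from 2 genotypes, with 3 biological replicates of each, and hybridised to Affymetrix mouse arrays from 100 ng of RNA. The controls were Fz4+/+Fz8-/- (Fz8-null, arrays C1, C2 and C3), which keep Fz4 and lack Fz8. The others were Fz4-/-Fz8-/- (double-null, arrays M1, M2 and M3). Fz4 and Fz8 are Frizzled receptors for Wnt signals, and both groups lack Fz8, so by their labels the groups differ in Fz4. The arrays also differed in liver, erythroid and repeat signal, as given below, so a difference cannot be assigned to Fz4 alone. All embryos were of a hybrid background of C57BL/6, 129X1/SvJ and 129S1/Sv strains. The labels give no sex, litter or hybridisation batch, and they do not say whether 1 array holds 1 embryo or several, so p-values measure the spread between these samples.

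The 5 families move small solutes across cell membranes. Most Slc2a carriers let glucose, fructose or urate pass down their gradients, and most Slc5a carriers pull sugars, vitamins or monocarboxylates in with sodium. Slc6a carriers use sodium and chloride to take up amino acids, neurotransmitters, creatine and taurine. Many Slc7a chains carry amino acids as pairs with a heavy chain, Slc3a1 or Slc3a2, and others work alone as cationic amino acid carriers. Slc22a proteins handle organic cations, anions and carnitine. In the adult kidney many of these carriers sit in the proximal tubule, where they reclaim filtered sugar and amino acids or secrete drugs and urate. At this stage the first tubules are only forming, and the growing tissue also needs carriers that feed dividing cells.

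The deleted receptor gene checked the labels. Fzd4 read 10.74, 10.86 and 10.93 in C1 to C3 and 5.29, 4.96 and 3.89 in M1 to M3 (log2 intensity), a difference of -6.13 (SE 0.35, limma adjusted p = 0.00318). The exact permutation p was 0.1, the smallest that 3 arrays against 3 can give. The limma adjusted p was 0.0635 without C1 and 0.0507 without C3, with differences of -6.18 and -6.09. The arrays had medians between 6.02 and 6.14, but M1 and M2 stood apart in the control probe set for the B1 repeat, a short interspersed sequence. That probe set read 11.02, 10.67 and 10.73 in C1, C2 and C3 and 11.83, 12.08 and 10.85 in M1, M2 and M3. Liver genes also read higher in M2 and M3: the mean of 12 measured liver genes ran from 5.09 to 5.74 over the Fz8-null arrays and reached 8.57 in M2 and 8.88 in M3, with M1 at 6.04. The mean of 8 erythroid genes was 7.19 in M1 and 9.68 and 9.88 in M2 and M3, against 7.87 to 8.02 in the Fz8-null arrays.

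The carriers that were well expressed lay slightly lower in double-null kidneys, and the dim ones lay higher, as did genes of the same brightness in general. No member passed the test over all genes. The lowest adjusted p was 0.314 (limma), beside 5 of 18193 genes called (0.0275%). At an unadjusted p under 0.05 limma gave 22 members, 8 lower and 14 higher, beside 15.3% of all genes (9.23% lower and 6.05% higher). Without M3 limma called 7 members lower and 14 higher at an adjusted p under 0.05, beside 18.1% of all genes. With arrays weighted by their spread it called 17 lower and 25 higher, beside 41.6% of all genes. The 26 members with a mean log2 of at least 6 had a median difference of -0.25, against -0.15 for all 11174 genes that bright. Of the 26, 21 lay below 0, beside 7991 of the 11174. In 5 of the 26 every double-null array was below every Fz8-null array, beside 16.3% of genes at that brightness, and in 0 was it above (3.08%). The 56 dimmer members had a median difference of 0.20, against 0.096 for the 7019 genes below 6. The dim members' median was 0.045 with quantile normalization and 0.041 with the B1 signal in the fit. Of these, 3 lay below all Fz8-null arrays, beside 5.74%, and 9 above them, beside 12.4%. Over all 82 members 8 were separated downward, beside 12.2% of genes, and 9 upward, beside 6.68%. The members nearest to the limit of 6 were Slc7a8 at a mean of 6.12 and Slc22a13 at 5.92. On whole kidneys, fewer cells of a type and less RNA per cell cannot be told apart.

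**Figure D1:**
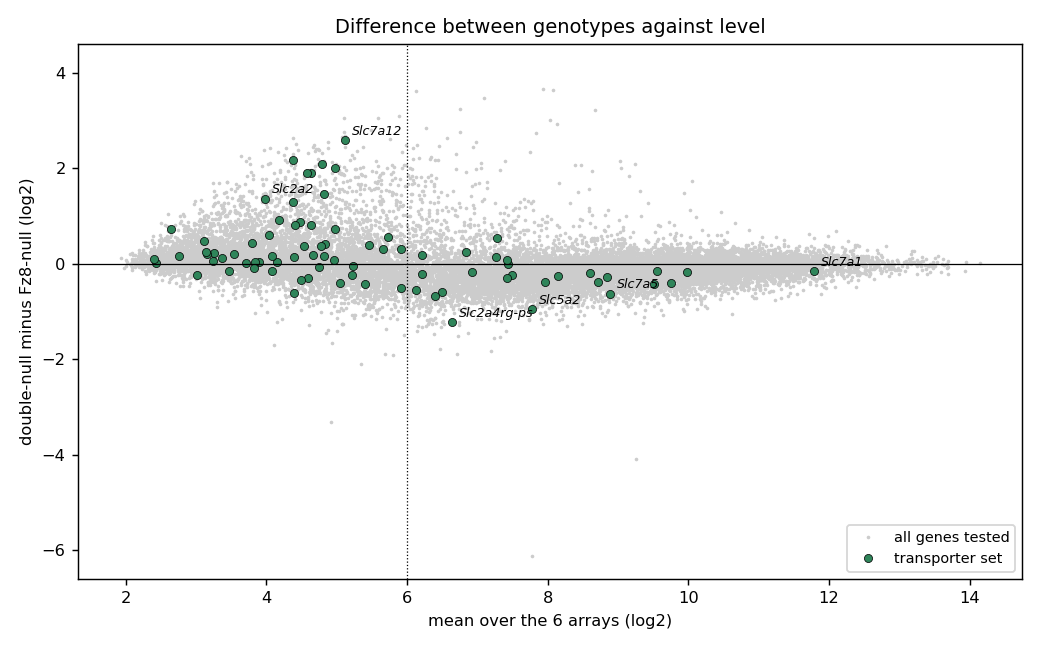
Difference between the genotypes (double-null minus Fz8-null, log2) against the mean over the 6 arrays (log2) for all 18193 genes (grey) and the 82 members (green), with a dotted line at 6. Members right of the line lie mostly just below 0 (median -0.25), and the members with the largest positive differences, up to 2.59 for Slc7a12, all lie left of it.

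The shift in the bright members was not shared evenly by the double-null arrays. Against the Fz8-null mean their median was -0.44 for M1, -0.28 for M2 and -0.0077 for M3. The corresponding medians of all genes with a mean of at least 6 were -0.17, -0.25 and -0.018. M3 thus sat with the Fz8-null arrays for these carriers, and M1 and M2, the arrays of high B1 signal, lay below them. A fit that included the B1 signal gave a median of 0.022 for the bright members. Because B1 was highest in M1 and M2, that fit leans on M3 against the Fz8-null arrays and is no separate check. Values given without M1 and M2 set M3 alone against the 3 Fz8-null arrays.

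**Figure D2:**
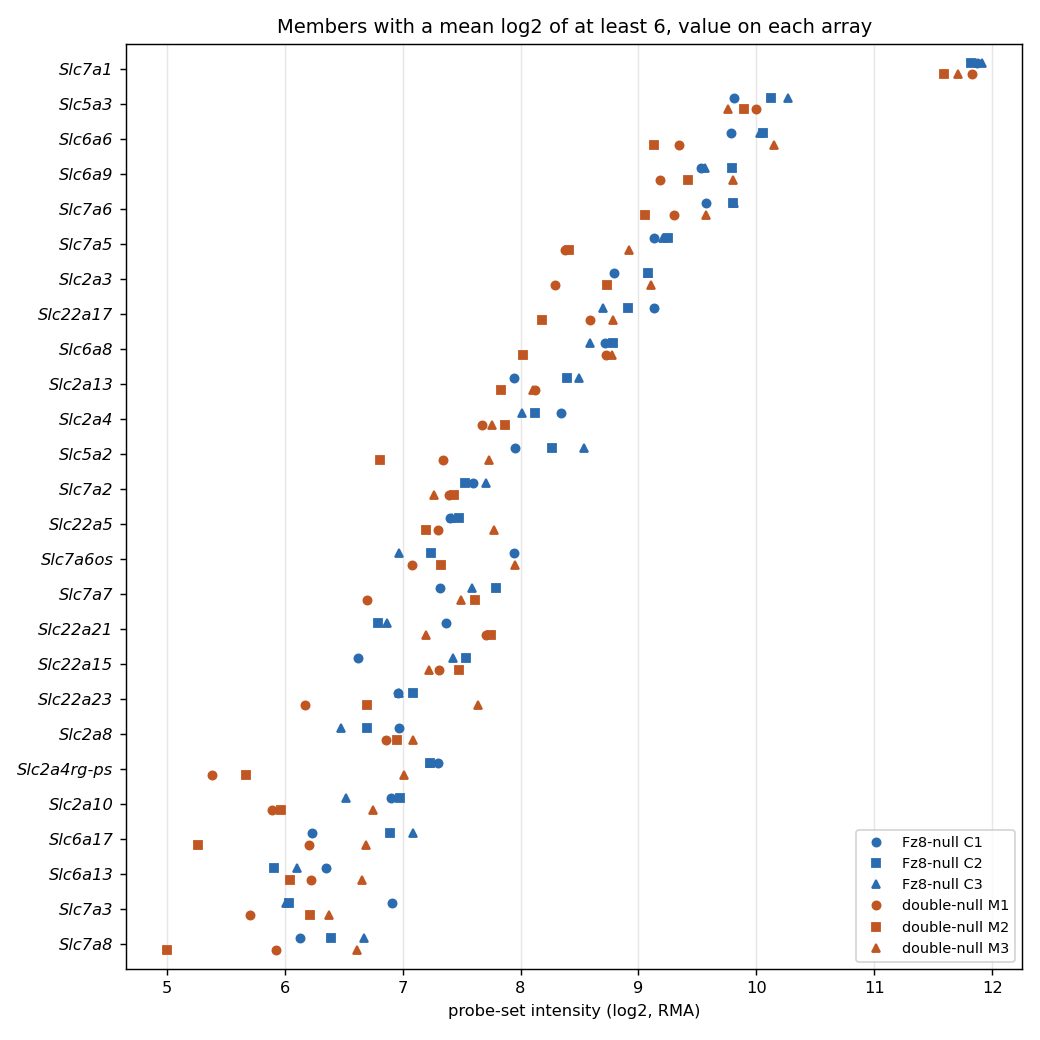
Log2 probe-set intensity of the 26 members with a mean of at least 6 on each of the 6 arrays (blue, Fz8-null C1 to C3; orange, double-null M1 to M3; circle, square and triangle are replicates 1, 2 and 3). Slc7a1 lies between 11.59 and 11.91, and in Slc7a5, Slc2a4, Slc5a2, Slc7a2 and Slc2a4rg-ps all 3 orange symbols lie left of the blue ones.

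All 7 amino acid carriers of the Slc7a family with a mean of at least 6 lay lower in double-null kidneys (median -0.30). So did 7991 of the 11174 genes that bright (median -0.15). Slc7a1, the main cationic amino acid carrier of dividing cells, read 11.87, 11.82 and 11.91 in C1 to C3 and 11.83, 11.59 and 11.71 in M1 to M3, and the groups overlapped. Its difference of -0.16 (SE 0.13, limma adjusted p = 0.528) did not pass the test. A second probe set of Slc7a1 stood at -0.56, with 8.73, 8.82 and 8.56 against 7.70, 7.98 and 8.76, so M1 and M2 were low on it and M3 lay inside the Fz8-null range. Slc7a5, which encodes the light chain of the large neutral amino acid exchanger LAT1, read 9.13, 9.25 and 9.21 in C1 to C3 and 8.38, 8.41 and 8.92 in M1 to M3. All double-null arrays were below the Fz8-null ones, with M3 nearest to them. The difference was -0.63 (SE 0.18, limma adjusted p = 0.314), 1.54-fold, and it was -0.28 without M1 and M2. Slc7a6, a light chain that exchanges cationic for neutral amino acids, stood at -0.42 (SE 0.17), and its other probe set at -0.73 (9.46, 9.72 and 9.50 against 8.56, 8.74 and 9.19). Both probe sets of Slc7a6 therefore pointed the same way, and only the less bright one separated the groups.

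The remaining bright Slc7a genes showed smaller or less even differences. Slc7a2, a cationic amino acid carrier, read 7.60, 7.53 and 7.70 against 7.40, 7.43 and 7.27, a small separated difference of -0.24 (SE 0.12, limma adjusted p = 0.362) that was -0.34 without M1 and M2. Slc7a7, the partner of Slc3a2 at the basolateral side of the tubule, stood at -0.30 (-0.012 without M1), Slc7a3, another cationic carrier, at -0.22, and Slc7a8, the light chain of LAT2, at -0.55 with its lowest value in M2 and 6.61 in M3. In these 3 genes the groups overlapped. Slc7a6os, transcribed beside Slc7a6 and no carrier, stood at 0.069 on its brightest probe set and at -0.70 on the other, so its probe sets disagreed. Slc3a2, the heavy chain that LAT1, LAT2 and both y+LAT light chains need, stood at 0.035 (SE 0.17), with 10.38, 10.09 and 9.96 in C1 to C3 and 10.08, 10.05 and 10.41 in M1 to M3.

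The cystine and dibasic amino acid exchanger of the proximal tubule, which fails in cystinuria, showed its chains on opposite sides. Slc7a9, its light chain, read 5.25, 5.51 and 5.57 in C1 to C3 and 6.28, 5.57 and 6.17 in M1 to M3. The groups were separated by the least of margins at M2, with a difference of 0.56 (SE 0.21, limma adjusted p = 0.317). Slc3a1, its heavy chain, read 6.88, 6.89 and 6.92 against 6.13, 5.94 and 6.83, a difference of -0.60 (SE 0.24, limma adjusted p = 0.320). The Slc7a9 difference was 0.73 without M1 and M2, where M3 stands alone, and 0.48 without M3 (limma adjusted p = 0.187). With the B1 covariate it was 0.84, but B1 was highest in M1 and M2, so that fit also leans on M3. The Slc3a1 difference was -0.064 without M1 and M2, and -0.86 without M3 (limma adjusted p = 0.0107), so its lower side rested on M1 and M2. The difference between the chains was not tested. Of the 7019 genes below a mean of 6, 4434 lay above 0, and the 8 dim Slc7a genes all did. Among them Slc7a15 stood at 0.43 (SE 0.15), with 3.78, 3.48 and 3.50 against 4.16, 4.02 and 3.85, Slc7a4 at 0.31, Slc7a10 at 0.17 and Slc7a14 at 0.81, the last with 4.40, 4.06 and 4.26 against 4.83, 5.90 and 4.41.

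Glucose carriers of the Slc2a family lay lower in 8 of 10 genes, with a median of -0.33, beside 10576 of all 18193 genes (median -0.061). Against the Fz8-null mean, the family median was -0.38 for M1, -0.40 for M2 and -0.047 for M3, so M3 again stood with the Fz8-null arrays. Slc2a4, the insulin-responsive carrier GLUT4, read 8.34, 8.12 and 8.01 in C1 to C3 and 7.68, 7.87 and 7.76 in M1 to M3. Every double-null array was lower, the difference was -0.39 (SE 0.14, limma adjusted p = 0.314), and it was -0.40 without M1 and M2. A second Slc2a4 probe set stood at -0.83 with overlapping groups. Slc2a3, the high-affinity carrier GLUT3, stood at -0.27, the inositol carrier gene Slc2a13 at -0.26 and Slc2a10 at -0.59, with M3 inside the Fz8-null range for the last 2. Slc2a8, an intracellular carrier, lay higher at 0.25.

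Among the 5 dim Slc2a genes 2 lay below all Fz8-null arrays, beside 5.74% of genes that dim, and 1 above them, beside 12.4%. Slc2a9, a urate carrier, read 4.65, 4.65 and 4.82 against 3.91, 4.02 and 4.34, a difference of -0.62 (SE 0.15, limma adjusted p = 0.314), while a dimmer probe set of it stood at 0.18. Slc2a5, the fructose carrier GLUT5, read 5.16, 5.15 and 5.44 against 5.07, 4.73 and 4.73, a difference of -0.40 (SE 0.16, limma adjusted p = 0.320). Slc2a2 had the smallest unadjusted p of the set (0.0023, rank 117 of all genes) and the opposite sign. It encodes GLUT2, the carrier of liver, pancreatic islets and the basolateral face of the proximal tubule. It read 3.09, 2.89 and 3.91 in C1 to C3 and 4.51, 4.49 and 4.96 in M1 to M3, so all double-null arrays were above all Fz8-null ones, M3 most. The difference was 1.36 (SE 0.29, limma adjusted p = 0.314) and 1.66 without M1 and M2. Liver markers were higher in the same arrays, most in M2 and M3 (median 2.46). At an unadjusted limma p under 0.05, 11 of 12 liver markers were higher, beside 6.05% of all genes. Their part in the Slc2a2 value was not tested.

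Slc2a4rg-ps, the pseudogene that carries a similar name, gave the most negative difference of the set. It read 7.30, 7.23 and 7.23 in C1 to C3 and 5.39, 5.67 and 7.01 in M1 to M3. M1 and M2 were far below the Fz8-null arrays and M3 slightly below them. It was the 1 member at least 1 log2 unit lower in both M1 and M2, beside 1.16% of all genes (1.41% of bright and 0.769% of dim genes). The difference was -1.23 (SE 0.40, limma adjusted p = 0.314) and -0.24 without M1 and M2.

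Sodium-coupled Slc5a carriers had 2 genes with a mean of at least 6, Slc5a2 and Slc5a3. Slc5a2 encodes SGLT2, the apical glucose carrier of the early proximal tubule. Its brightest probe set read 7.95, 8.26 and 8.54 in C1 to C3 and 7.35, 6.81 and 7.73 in M1 to M3, a difference of -0.96 (SE 0.26, limma adjusted p = 0.314) or 1.94-fold. Its other probe set read 7.71, 7.73 and 7.81 against 7.02, 6.68 and 7.35, a difference of -0.74. Both probe sets separated the groups, and M2 was lowest in each. The difference of the brightest was -0.52 without M1 and M2. The first of these carries the suffix of probe sets that can match several transcripts, and the second does not. Slc5a3, the sodium and inositol carrier gene that responds to osmotic stress, stood at -0.18 with overlapping groups. Slc5a6, the multivitamin carrier gene, read 6.24, 6.15 and 6.11 against 5.71, 5.32 and 5.94, a separated difference of -0.51 (SE 0.18, limma adjusted p = 0.314).

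The other 10 Slc5a genes had means below 6 and differences between -0.16 and 2.17, and Slc5a1, the intestinal and late tubular carrier SGLT1, separated the groups narrowly at 0.20 near background. Slc5a4a, a relative of SGLT1, separated the groups with 3.99, 3.71 and 3.52 against 5.09, 5.73 and 4.25. Its difference was 1.28 (SE 0.36, limma adjusted p = 0.314), with M3 closest to the Fz8-null arrays, and it was 0.51 without M1 and M2.

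**Figure D3:**
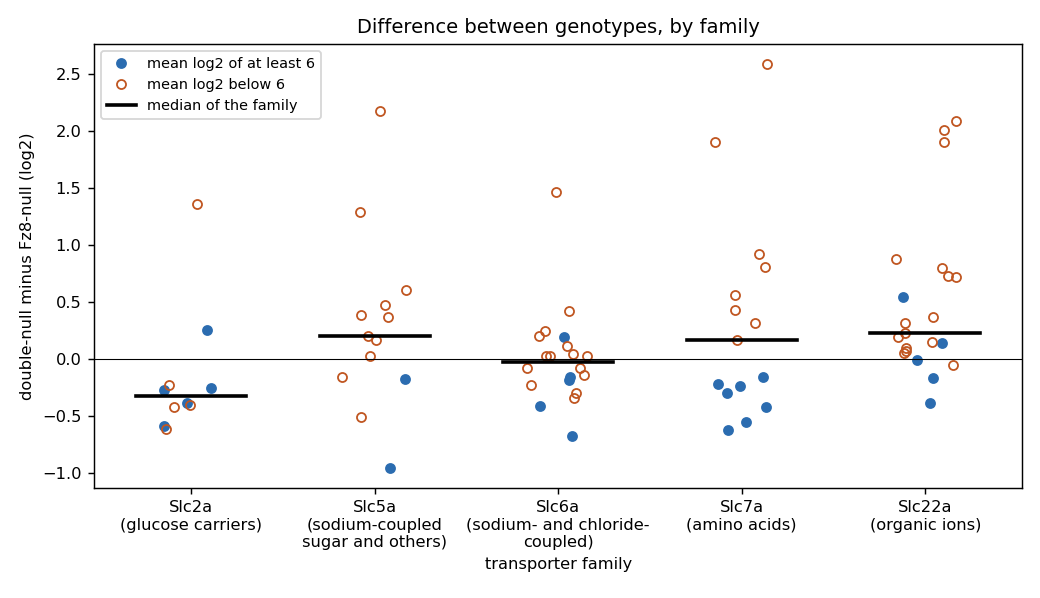
Difference between the genotypes (double-null minus Fz8-null, log2) for the 79 transporter genes by family; filled blue points have a mean log2 of at least 6, open orange points a lower mean, and black bars are family medians. The bars stand at -0.33 for Slc2a, 0.20 for Slc5a, -0.029 for Slc6a, 0.17 for Slc7a and 0.22 for Slc22a, and most large positive differences are open points.

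The Slc6a family was centred on 0, with a median of -0.029 over 20 genes and 10 on each side. Slc6a6, the taurine carrier gene, was bright and uneven. It read 9.78, 10.06 and 10.03 in C1 to C3 and 9.34, 9.14 and 10.15 in M1 to M3, so M1 and M2 were below all others and M3 above them. The difference of -0.42 (SE 0.27, limma adjusted p = 0.446) became 0.19 without M1 and M2. A second Slc6a6 probe set read 9.21, 9.30 and 9.25 against 8.39, 8.57 and 9.18, a difference of -0.54, and another stood at -0.30. Both of these separated the groups. The array nearest to the Fz8-null ones was M3 in the first and M2 (5.08, with M3 at 4.98) in the other. A further probe set stood at -0.37 with overlapping groups and M3 inside the Fz8-null range, so the probe sets of Slc6a6 disagreed on M3. Slc6a9, the glycine carrier GlyT1, stood at -0.16, and Slc6a8, the creatine carrier, at -0.19, with 8.02 in M2 and 8.73 and 8.78 in M1 and M3. Slc6a17, a vesicular carrier of neurons, stood at -0.68 with a low value of 5.27 in M2. Slc6a13, which takes up GABA and betaine, stood at 0.19. On the brightest probe set of each of these 5 genes the groups overlapped.

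Of the dim Slc6a genes, Slc6a2, the noradrenaline carrier of sympathetic neurons, passed the unadjusted threshold. It read 4.88, 4.49 and 4.52 against 4.93, 5.07 and 5.13, a narrow separation of 0.42 (SE 0.15, limma adjusted p = 0.315). The other probe sets of Slc6a2 stood at 0.11, -0.090 and 0.50, each with overlapping groups. The mean of 9 neuron and sympathetic genes was 5.27 to 5.42 over the Fz8-null arrays and 5.51 to 6.03 over the double-null arrays. Elavl3, 1 of the 9, weighed heavily on it, with 5.71, 4.27 and 4.44 against 7.07, 7.51 and 4.82. Only 1 of the 9 genes lay above all Fz8-null arrays, beside 6.68% of all genes. The part of these genes in the Slc6a2 value was not tested. Slc6a18 and Slc6a19, neutral amino acid carriers of the mature proximal tubule, had means of 3.90 and 3.01 and stood at 0.026 and -0.23. Slc6a3, the dopamine carrier gene, and the antisense gene Slc6a19os also had means below 6 and separated the groups upward by 0.25 and 0.16.

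Organic ion carriers of the Slc22a family lay higher in 17 of 21 genes, with a median of 0.22. Of the 21, 16 had means below 6, and 15 of those lay higher, beside 4434 of the 7019 genes that dim. No member of the family separated the groups, beside 12.2% of all genes separated downward and 6.68% upward. Slc22a5, the carnitine carrier OCTN2, was level at -0.0070 (SE 0.18), with 7.40, 7.48 and 7.42 in C1 to C3 and 7.30, 7.20 and 7.78 in M1 to M3. Its genomic neighbours Slc22a21, a further carnitine carrier, and Slc22a4, the ergothioneine carrier, both lay higher. Slc22a21 read 7.37, 6.79 and 6.87 against 7.71, 7.75 and 7.20, a difference of 0.54 (SE 0.22, limma adjusted p = 0.325) that was 0.19 without M1 and M2. Slc22a4 read 3.56, 4.17 and 4.37 against 4.33, 5.29 and 5.12, a difference of 0.88 (SE 0.31, limma adjusted p = 0.314) that was 1.09 without them. C3 and M1 overlapped slightly in Slc22a4, and C1 and M3 overlapped in Slc22a21.

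Of the other bright Slc22a genes, Slc22a17, a receptor for lipocalin, stood at -0.39, Slc22a23 at -0.17 and Slc22a15 at 0.14. A second and dimmer Slc22a15 probe set stood at 1.73, with 5.90, 5.13 and 4.80 against 7.17, 7.79 and 6.06, so the probe sets of that gene disagreed. The drug carriers of the proximal tubule were near background. Slc22a2, the organic cation carrier OCT2, read 4.92, 4.43 and 4.51 against 5.69, 5.49 and 4.86, a difference of 0.73 (SE 0.25, limma adjusted p = 0.314) that was 0.24 without M1 and M2. Slc22a6 and Slc22a8, the organic anion carriers OAT1 and OAT3, stood at 0.19 and 0.070, and both were highest in M3, at 5.75 and 5.53.

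A group of dim carriers read high in both M1 and M2. In 11 of the 56 members below a mean of 6 (19.6%) both arrays read at least 1 log2 unit above the Fz8-null mean, beside 8.19% of all genes that dim. Over all genes the share was 3.91%. The same was true of 0 of the 26 brighter members, beside 1.22% of genes that bright. Slc7a12, an amino acid carrier of mature kidney, read 5.27, 3.78 and 2.42 in C1 to C3 and 7.14, 7.04 and 5.06 in M1 to M3. Its difference of 2.59 (SE 0.82, limma adjusted p = 0.314) was the largest of the set, yet C1 was above M3. Slc7a13, a relative of Slc7a12, read 4.40, 3.31 and 3.32 against 6.47, 6.48 and 3.80, a difference of 1.90 (SE 0.74). Slc5a12, a sodium-coupled lactate carrier, read 3.97, 2.80 and 3.10 against 5.93, 6.72 and 3.72, a difference of 2.17 (SE 0.74, limma adjusted p = 0.314).

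The organic anion carriers of this group followed the same order of arrays. Slc22a22, which takes up prostaglandins, read 4.45, 3.65 and 3.17 in C1 to C3 and 6.78, 6.93 and 3.81 in M1 to M3, a difference of 2.08 (SE 0.83, limma adjusted p = 0.321). Slc22a30 read 4.20, 3.35 and 3.33 against 6.00, 6.66 and 3.93, a difference of 1.90 (SE 0.67, limma adjusted p = 0.314). Slc22a29 read 5.04, 3.81 and 3.06 against 7.21, 6.90 and 3.84, and Slc22a27, which missed the limit of 1 unit in M1, 2.61, 2.14 and 2.12 against 3.19, 3.43 and 2.41. In each of these C1 was the highest Fz8-null array, and M3 lay below C1. Slc22a27, Slc22a29 and Slc22a30 are close relatives, and the probe sets of Slc22a27 and Slc22a29 carry the suffix of sets that can bind other transcripts, so their signals are uncertain by gene. A probe set annotated to both Slc22a29 and Slc22a30, and so left out of the set, read 4.12, 3.49 and 2.75 against 7.37, 6.89 and 4.21.

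The group was completed by Slc6a14, a broad amino acid carrier, which read 7.34 in M2 and 5.19 in M1 against at most 4.54 elsewhere, by Slc7a11, Slc5a8, Slc5a4a and Slc2a2. Slc7a11, the cystine and glutamate exchanger, read 4.05, 3.64 and 3.46 against 5.03, 5.25 and 3.63. In 9 of the 11 genes C1 was the highest Fz8-null array, in 10 M3 was below both M1 and M2, and in 8 M3 lay within the Fz8-null range. Over all 575 genes below 6 that were chosen in the same way, the shares were 78.4%, 98.6% and 64.2%, so these counts are not particular to carriers. A choice by high M1 and M2 favours an M3 below them, but it does not rank C1 against C2 and C3. Why C1 was so often the highest was not tested. The B1 control probe set ranked the arrays in the order M2, M1, C1, M3, C3 and C2. M1 and M2 chose these genes and are also highest in B1, so a smaller difference in a fit with B1 is partly set by the choice. In that fit the difference was -0.028 for Slc22a22, 0.017 for Slc7a13, 0.16 for Slc22a30, 0.25 for Slc5a12 and 0.95 for Slc7a12. For Slc2a2 it was 1.68, and for Slc22a4, which is outside the group, 1.10. The second probe set of Slc7a13 stood at -0.014, that of Slc6a14 at 0.16 and that of Slc5a12 at 0.75. Only for Slc5a12, of these 3 genes, did the second probe set separate the groups.

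**Figure D4:**
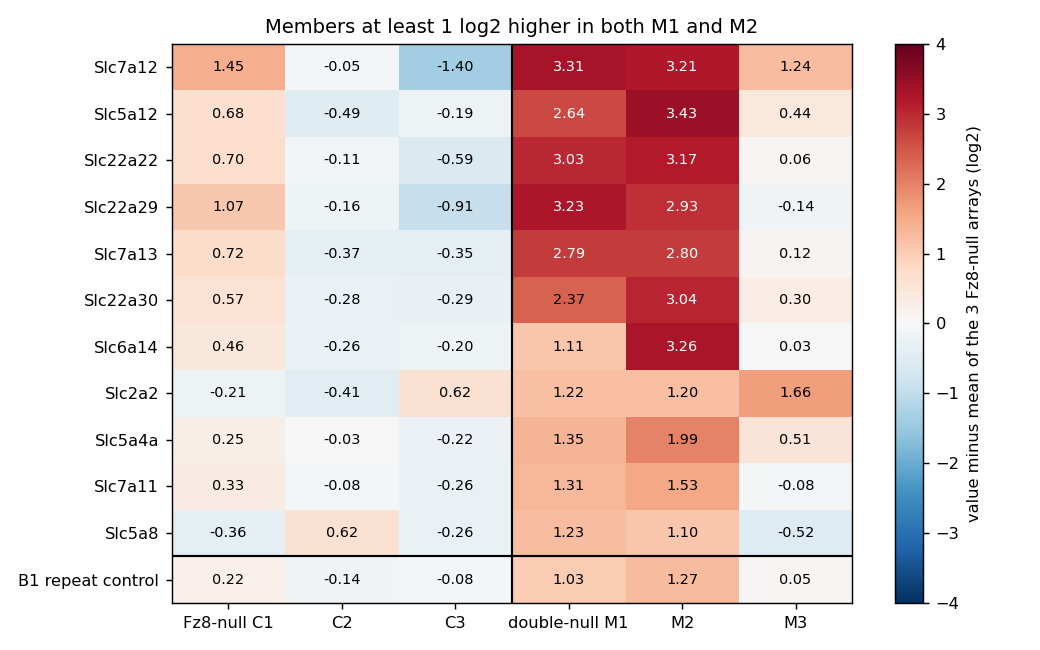
Value on each array minus the mean of the 3 Fz8-null arrays (log2) for the 11 members at least 1 unit higher in both M1 and M2, with the B1 repeat control probe set in the bottom row. M1 and M2 are red throughout, from 1.10 to 3.43 for the members, and Slc2a2 is the 1 member with its highest value in M3.

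Start-site sequences of 3 of these genes are shown because they read high together in M1 and M2. They are the 250 bases before the start site, from RefSeq on GRCm38.p6, all on the minus strand: Slc22a29 at chr19:8218901-8219150, Slc22a30 at chr19:8405106-8405355 and Slc7a11 at chr3:50443614-50443863. Capitals mark a half-site of HNF1, a factor of proximal tubule genes (GTTAAT or, on the other strand, ATTAAC), or a core that ATF4, the factor of the amino acid stress response, is known to bind (TGATGNAA or TTNCATCA).
Slc22a29: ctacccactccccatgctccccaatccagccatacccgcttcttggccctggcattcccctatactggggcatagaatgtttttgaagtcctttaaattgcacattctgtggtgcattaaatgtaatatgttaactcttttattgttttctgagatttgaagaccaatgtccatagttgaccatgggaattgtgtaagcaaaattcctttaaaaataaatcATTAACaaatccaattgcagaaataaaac
Slc22a30: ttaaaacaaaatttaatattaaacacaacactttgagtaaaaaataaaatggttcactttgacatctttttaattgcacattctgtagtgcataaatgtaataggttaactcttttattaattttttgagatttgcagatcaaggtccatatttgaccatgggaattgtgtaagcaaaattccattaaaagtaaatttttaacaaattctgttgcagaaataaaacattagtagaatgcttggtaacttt
Slc7a11: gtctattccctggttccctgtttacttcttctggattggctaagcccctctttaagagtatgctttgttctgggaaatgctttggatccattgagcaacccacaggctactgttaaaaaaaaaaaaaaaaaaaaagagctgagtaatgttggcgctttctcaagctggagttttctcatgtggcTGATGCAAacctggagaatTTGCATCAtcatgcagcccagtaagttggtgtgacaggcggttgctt
Slc22a29 held 1 HNF1 half-site, Slc22a30 held neither motif, and Slc7a11 held the ATF4 core once on each strand. The windows of Slc22a29 and Slc22a30 were 65.2% identical over their alignment, and that of Slc22a29 was 51.0% identical to Slc22a27. That of Slc22a30 was 62.8% identical to Slc22a19, which is outside the group and stood at 0.091. Such likeness is therefore not particular to the genes that read high. Over windows that also took in the 50 bases after the start, 7.10% of 32851 mouse promoters held the HNF1 half-site and 3.97% the ATF4 core. Of the 62 members with a promoter in the table, 10 held the half-site and 3 the core, Slc7a11 among them. By window that was 10 of 83 (12.0%) and 4 of 83 (4.82%). Of the 8 genes of the M1 and M2 group with a promoter there, 2 held the half-site (Slc22a29 and Slc5a4a) and 1 the core. A match describes the letters and shows no binding.

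Other transporter genes, from a list that includes the heavy chains, gave a median of -0.15 over 33 measured genes, with 0 called. All double-null arrays lay below all Fz8-null arrays in 8 of them, beside 12.2% of all genes, and above in 5, beside 6.68%. Slco4c1, an organic anion carrier, read 6.91, 6.79 and 6.95 against 6.08, 5.01 and 5.57, a difference of -1.33 (SE 0.26, limma adjusted p = 0.312). All double-null arrays were well below the Fz8-null ones in this gene, M3 included. Slco1a1 stood at 1.38 and Slc36a1, a lysosomal amino acid exporter, at -0.67. The 17 genes of the amino acid stress response, which ATF4 drives together with Slc7a5 and Slc7a11, had a median of -0.18, with 0 called. Of the 17, 2 had means below 6. All double-null arrays lay below all Fz8-null arrays in 4, beside 16.3% of genes with a mean of at least 6, and above in 0, beside 3.08%. Chac1, 1 of the 4, had a mean of 4.46, and 5.74% of genes that dim were separated downward. Mthfd2 stood at -0.40 and Shmt2 at -0.52, both separated, and Ddit4 at -0.71 with overlapping groups. Atf4 itself was level at -5.2e-05, and Asns and Nupr1 lay higher at 0.22 and 0.27. Slc7a5 and Slc7a11 themselves stood on opposite sides, at -0.63 and 0.92.

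Proximal tubule genes were mixed. Of 17 measured, 0 were called, and the median was 0.080. Below all Fz8-null arrays lay 1, Slc3a1 at -0.60, beside 12.2% of all genes. Above them lay 2, Hnf4a and Mme, beside 6.68%. Their mean level was 6.26 to 6.44 over the Fz8-null arrays and 6.40 to 6.78 over the double-null arrays, and 7 of the 17 had means below 6. Hnf4a, a nuclear receptor that directs tubular carrier genes, read 7.50, 7.44 and 7.53 in C1 to C3 and 9.10, 7.83 and 8.54 in M1 to M3, a difference of 1.00 (SE 0.30, limma adjusted p = 0.314). Slc2a2 and Slc7a9 were, like Hnf4a, above every Fz8-null array in all double-null arrays, though Slc7a9 only barely so in M2. The mean of the liver genes was also above every Fz8-null array in all of them. The part of Hnf4a or of liver tissue in these values was not tested. Slc5a2 was below every Fz8-null array in all double-null arrays. Hnf4g stood at 1.46, with its highest values of 6.75 and 6.60 in M1 and M2.

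No marker of the kidney compartments or of other cells was called (lowest limma adjusted p = 0.109, for Crym), and the counts below stand beside 16.3% of genes with a mean of at least 6, or 12.2% of all genes, that lay below every Fz8-null array. Of 8 nephron progenitor genes 6 lay below all Fz8-null arrays (median -0.77, 0 called), with Crym at -1.24, Meox1 at -0.81 and Gdnf at -0.73. Of 9 ureteric epithelium genes 2 did (median -0.21), Ret at -1.11 and Gata3 at -0.38, and of 8 nephron epithelium genes 4 did (median -0.20), with Fgf8 at -0.92 and Wnt4 at -0.47. Of 10 endothelial genes 3 lay below (median -0.28), Kdr, Esam and Tie1, at -0.80, -0.61 and -0.80. Of 7 stromal genes 0 did (median -0.058). Macrophage genes had a median of 0.27 over 10 genes, with C1qb at 1.27. The 3 measured placenta or yolk sac genes had a median of 0.27, with Apoa4 at 0.24, Tpbpa at 0.27 and Rbp4 at 2.06. Rbp4 was highest in M2 and M3, as was the mean of the liver genes, and its M1 value lay inside the Fz8-null range. Whether Rbp4 and the liver genes rose for the same reason was not tested. The part of these shifts in the carrier values was not tested.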

How the data were processed

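RNA of 6 whole mouse kidney samples was measured on 1-colour Affymetrix arrays. The authors deposited log2 intensities, 1 for each probe set on each array, normalized with RMA per the submitters' processing notes (its version is not given in the sources used here), and the values were used as deposited. Of 45101 probe sets, 64 controls were set aside, 34945 carried exactly 1 gene in the platform annotation, 932 several and 9160 none. The brightest probe set represented each of 18193 genes. The genotypes were compared with limma 3.58.1 in R 4.3.3 (lmFit and eBayes, two-sided), with Benjamini-Hochberg adjustment over all genes and a threshold of 0.05; the fit was tested on simulated data. Differences are double-null minus Fz8-null. Array number limits the precision. All members with a mean of at least 6, and dimmer ones with an unadjusted p under 0.05, are named, and other members only where a family or group is described. The members and lists were chosen with earlier results of these data known, and those of the lists come from general knowledge. Lists are described by counts and medians, without a test. Alternatives were another normalization, filter, variance model, probe set, array weights, the replicate number as a block, and leaving out arrays. Arrays 1, 2 and 3 of the groups had residual correlations of 0.17, -0.14 and 0.090 with their namesakes. The labels do not say whether the numbers pair the samples, and these correlations cannot settle it.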

Additional observations from a re-analysis of the deposited data

How the results depend on the processing

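With other settings the count of members called in limma at an adjusted p under 0.05 stayed at 0, except with array weights (17 lower and 25 higher, beside 7576 of all genes, or 41.6%, with a weight of 3.93 for M1 and 0.211 for M3) and without M3. Leaving out each array in turn gave 0 to 14 members called higher, 0 to 7 lower, 2 to 3292 genes called, 8 to 22 members separated downward and 9 to 28 upward. The highest counts came without M3, where 34.1% of all genes were separated downward and 19.2% upward, against 26.8% and 34.1% of the members. The same gave medians of 0.0028 to 0.32 for Slc7a and 0.20 to 0.33 for Slc22a, and a Fzd4 difference of -6.42 to -5.71. The replicate number as a block left 3 genes called, and it changed no call of a member. Genes called numbered 1 with the mean of all probe sets, 1 with probe sets without an s, x or a suffix, and 11 at an adjusted p under 0.1. Keeping only genes with a mean of at least 6 left 5 members separated downward and 0 upward, with medians of -0.25 for all members, -0.15 for all genes, -0.57 for Slc5a, -0.19 for Slc6a, -0.30 for Slc7a and -0.0070 for Slc22a. Quantile normalization gave 5 members separated upward and medians of -0.026 for all members and -0.0077 for Slc7a. Array weights gave a median of 0.37 for Slc22a.

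The remaining alternatives were chosen after seeing the data. B1 was highest in M1 and M2, so the fit with B1 comes close to the fit without them. The 2 are not separate checks: Slc7a2 stood at -0.338 with the covariate and -0.339 without M1 and M2. Leaving out M1 and M2 together leaves M3 as the lone double-null array, assumed to vary like the Fz8-null arrays. Without M1 and M2, 55 genes were called, 15 members (18.3%) were separated downward and 29 (35.4%) upward, beside 26.0% and 27.0% of all genes, and the medians were -0.0077 for bright members, 0.0077 for all genes, -0.047 for Slc2a and 0.12 for Slc22a. With the B1 covariate 3 genes were called, and the medians were 0.022 for bright members, 0.0027 for all genes, -0.044 for Slc2a, -0.10 for Slc5a, 0.12 for Slc6a, 0.017 for Slc7a and 0.10 for Slc22a.

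Of 42 named members 12 changed sign in some alternative. Without M1 and M2 and with the B1 covariate the values were 0.64 and 0.56 for Slc22a23, 0.34 and 0.35 for Slc22a5, 0.12 and 0.11 for Slc2a3, 0.19 and 0.23 for Slc6a6, 0.084 and 0.14 for Slc6a8, 0.18 and 0.17 for Slc6a9, and 0.22 and 0.34 for Slc7a8. Slc7a3 stood at 0.053 without M1 and M2. With the covariate Slc22a22 stood at -0.028 and Slc6a17 at 0.16. Slc22a5 stood at 0.12 with quantile normalization, 0.048 with equal array medians and 0.035 with the mean of probe sets. Slc2a3 stood at 0.032 without suffixed probe sets, Slc22a15 at -0.088 with array weights, and Slc7a6os at -0.066 with array weights and -0.32 with the mean of probe sets. Leaving out each array in turn gave -0.15 to 0.31 for Slc22a15, -0.57 to 0.17 for Slc22a23, -0.18 to 0.11 for Slc22a5, -0.32 to 0.057 for Slc6a8, -0.37 to 0.074 for Slc7a3 and -0.18 to 0.35 for Slc7a6os. The cause of these changes was not tested. Values near background limit what the dim members can show.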
